A study of Mus musculus with 20 samples.

Results

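The neurotrophins and their receptors were followed in brain RNA as 6 named genes, which were the 6 rows among the 17211 genes of the expression table whose gene name was *Bdnf*, *Ntf3*, *Ntrk2*, *Ntrk3*, *Ngfr* or *Vgf*. The comparison was between 10 *Winnie* mice, which carry a missense mutation of the mucin gene *Muc2* in every tissue and develop spontaneous chronic colitis, and 10 C57BL/6 mice without the mutation. Each library came from the brain of 1 mouse, each group held 5 mice labelled male and 5 labelled female, and the methods give an age of 14 weeks and the same breeding colony for both. No mouse received a treatment, and a single model of colitis was studied. *Muc2* itself was not analysed here.

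Neurotrophins are small secreted proteins that keep neurons alive and shape their synapses. Each is made as a precursor, cleaved by proprotein convertases or by plasmin, and released from dense-core granules, in part in response to neuronal firing. Brain-derived neurotrophic factor (*Bdnf*) acts through the receptor tyrosine kinase TrkB (*Ntrk2*) and neurotrophin-3 (*Ntf3*) mainly through TrkC (*Ntrk3*), while the p75 receptor (*Ngfr*) binds all neurotrophins and their precursors. In the forebrain p75 is best known as a marker of cholinergic neurons of the basal forebrain. *Vgf* encodes a granule protein whose transcription is induced by neurotrophins and by neuronal activity.

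Library totals ran from 16540303 to 23923769 reads with a median of 19087088, so that 3 reads were worth at most 0.181 CPM, the unit of the table, in which each gene's reads are scaled to the library total. The weakest of the 6 genes, *Ntf3*, was counted from 21 to 47 reads per library, *Ngfr* from 47 to 135, and the others from at least 447. *Xist* and *Ddx3y* went against the labelled sex in 9 of the 10 C57BL/6 libraries and in 0 of the 10 *Winnie* libraries, so the sexes were compared only within *Winnie*. Libraries of the 2 genotypes, and of the 2 labelled sexes within *Winnie*, carried separate runs of library numbers, so an effect of library order and an effect of genotype or sex cannot be told apart. Neuronal markers were abundant, with 4767 to 5597 CPM summed over 6 genes, and 6 cerebellar markers summed to 129 to 162 CPM, of which *Calb1* had 91.9 to 116 CPM and the granule cell marker *Gabra6* 0 to 7.44 CPM. In bulk RNA fewer cells of a type and less RNA per cell cannot be told apart.

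The genes differed widely in level. Per kilobase of annotated exon, *Vgf* was the most abundant, at 103 ± 14.1 CPM per kb in C57BL/6 brains (mean ± SD, n = 10). *Ntrk2* followed at 39.8 ± 1.81 CPM per kb, *Bdnf* at 5.19 ± 1.11 and *Ntrk3* at 2.25 ± 0.0990. *Ngfr* at 1.28 ± 0.461 and *Ntf3* at 1.06 ± 0.273 CPM per kb closed the order, and these neighbours did not differ beyond their spread. The order in *Winnie* brains was the same, from 104 ± 9.68 CPM per kb for *Vgf* to 0.961 ± 0.221 for *Ntf3*.

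Among the ligands, *Bdnf* lies on chr2:109674700-109727007 (GRCm38, plus strand) and has 11 annotated transcripts, which begin at different first exons and end in 1 shared stop codon. The count per gene adds all of these starts together. Of 7 starts listed by RefSeq (GRCm38.p6), 2 have the sequence TCACGTNA, with any base at N, in the 100 bases before them. The 2 matches, TCACGTAA and TCACGTCA, resemble the site bound by the activity-dependent factor CREB. The pattern as a whole is broader than that site. The 2 sequences are shown as background only. Counts per gene do not tell which start was used, and a link of these sites to the level of *Bdnf* was not tested. The sequences run 5′ to 3′ on the plus strand up to the base before the start, with the match in capitals.

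Bdnf start at chr2:109674600-109674699: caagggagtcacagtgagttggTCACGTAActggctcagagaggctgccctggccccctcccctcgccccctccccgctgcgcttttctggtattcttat
Bdnf start at chr2:109692336-109692435: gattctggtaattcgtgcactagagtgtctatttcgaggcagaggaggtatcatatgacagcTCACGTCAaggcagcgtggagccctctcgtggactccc

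The match ended 70 bases before the first of these starts and 30 bases before the second. TCACGTNA, searched on both strands with any base at N, was found in the same window of 0.849% of 32851 listed promoters. That share is therefore not one of CREB sites alone, and the pattern was chosen after these sequences were seen. The palindrome TGACGTCA, which is known as the full CRE, was found in 1.15% of promoters and at 0 of the 7 *Bdnf* starts, which says only that these letters are not in these windows.

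*Bdnf* did not differ between the genotypes beyond the spread between mice. It ranged from 25.2 to 45.0 CPM in C57BL/6 brains (median 29.6) and from 24.8 to 34.9 CPM in *Winnie* brains (median 30.4). The groups overlapped between 25.2 and 34.9 CPM, and the 3 highest brains, at 35.1, 42.2 and 45.0 CPM, were all C57BL/6. The log2 fold change (*Winnie* minus C57BL/6) was −0.07 with a 95% confidence interval of −0.26 to 0.13 (FDR = 0.776, limma). The SD was 6.90 CPM in C57BL/6 and 3.08 CPM in *Winnie*, and the difference in spread was not tested.

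*Ntf3* (chr6:126101412-126166910, minus strand), the ligand of TrkC, ranged from 1.38 to 2.84 CPM in C57BL/6 (median 1.59) and from 1.09 to 2.16 CPM in *Winnie* (median 1.83). The 3 lowest values of all 20 brains, 1.09, 1.13 and 1.20 CPM, were *Winnie*. Its log2 fold change of −0.11 had an interval of −0.34 to 0.13 and an FDR of 0.683. *Ntf5*, another ligand of TrkB, was not analysed here.

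Among the receptors, *Ntrk2* stood nearest to the threshold. TrkB is transcribed from chr13:58806569-59133970 (plus strand) as 10 annotated transcripts with 6 different stop codons, so the kinase form of neurons and the truncated forms, of which one is abundant in astrocytes, are added together in 1 count. In C57BL/6 brains *Ntrk2* ranged from 690 to 816 CPM with a median of 767, and in *Winnie* brains from 791 to 869 CPM with a median of 828. All 10 *Winnie* brains lay above the C57BL/6 median and 6 lay above the highest C57BL/6 brain. The log2 fold change was 0.10 ± 0.0303 (SE), or 7.47% more, with a confidence interval of 2.95% to 12.2%. A two-sided permutation test of this gene alone gave p = 0.00032 (100000 resamples), but over all 17211 genes the FDR was 0.0587 and *Ntrk2* did not pass 0.05. It passed with voom (FDR = 0.0431), with DESeq2 (FDR = 0.0138) and with *Ddx3y* as a covariate (FDR = 0.0486). It also passed when C57BL/6 replicate 1 (FDR = 0.0473), 7 (FDR = 0.0442) or 10 (FDR = 0.0480) was left out. With edgeR, the tool of the study's methods, the FDR was 0.0576. Of 7 astrocyte markers 0 passed, their median log2 fold change was 0.01, with −0.16 for *Aqp4* (unadjusted limma p = 0.0191) as the lowest and 0.05 for *Slc1a2* as the highest, and their summed level was 4531 to 5239 CPM in C57BL/6 and 4598 to 5280 CPM in *Winnie*. The part of cell composition in the value of *Ntrk2* was not tested.

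*Ntrk3* (chr7:78175959-78738012, minus strand), which encodes TrkC, was close to equal in the 2 genotypes, with 64.5 to 72.4 CPM in C57BL/6 (median 68.5) and 60.9 to 76.9 CPM in *Winnie* (median 68.8). The *Winnie* brains lay on both sides of the controls, 3 below the lowest and 2 above the highest. Its log2 fold change of 0.01 had an interval of −0.07 to 0.10 (FDR = 0.901). *Gm9885*, an antisense gene listed at a mean of 2.82 CPM, overlaps *Ntrk3*, and how the counting treated strand is not given in the sources used here.

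*Ngfr* (chr11:95568818-95587735, minus strand), the p75 receptor, varied most between mice of 1 genotype, from 2.68 to 6.59 CPM in C57BL/6 (median 4.08) and from 2.55 to 7.24 CPM in *Winnie* (median 4.78). Its within-genotype SD was 0.47 on the log2 scale, against 0.06 for *Ntrk2*, 0.09 for *Ntrk3*, 0.17 for *Vgf*, 0.23 for *Bdnf*, 0.27 for *Ntf3* and 0.13 for the median gene with a mean CPM of at least 1. With a log2 fold change of 0.08 the interval was wide, from −0.34 to 0.50 (FDR = 0.880), or a change of −20.8% to 41.8%.

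*Vgf* (chr5:137026392-137033351, plus strand) ranged from 258 to 363 CPM in C57BL/6 (median 311) and from 262 to 339 CPM in *Winnie* (median 317). The *Winnie* values lay wholly inside the C57BL/6 range. Its log2 fold change of 0.02 had an interval of −0.13 to 0.16 (FDR = 0.940).

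In all, 0 of the 6 genes passed an FDR of 0.05 by limma between the genotypes, where 434 of all genes (2.52%) did, 261 of them higher and 173 lower in *Winnie*. At an unadjusted p under 0.05 there was 1 of 6, *Ntrk2*, against 3030 of all genes (17.6%). By other tools 0 of 6 passed with edgeR, and 1 of 6, again *Ntrk2*, with voom and with DESeq2. At the threshold of the study's methods, an FDR under 0.001 with at least a 1.5-fold change, limma called 0 genes of the whole table, edgeR 1 and DESeq2 12.

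**Figure D1:**
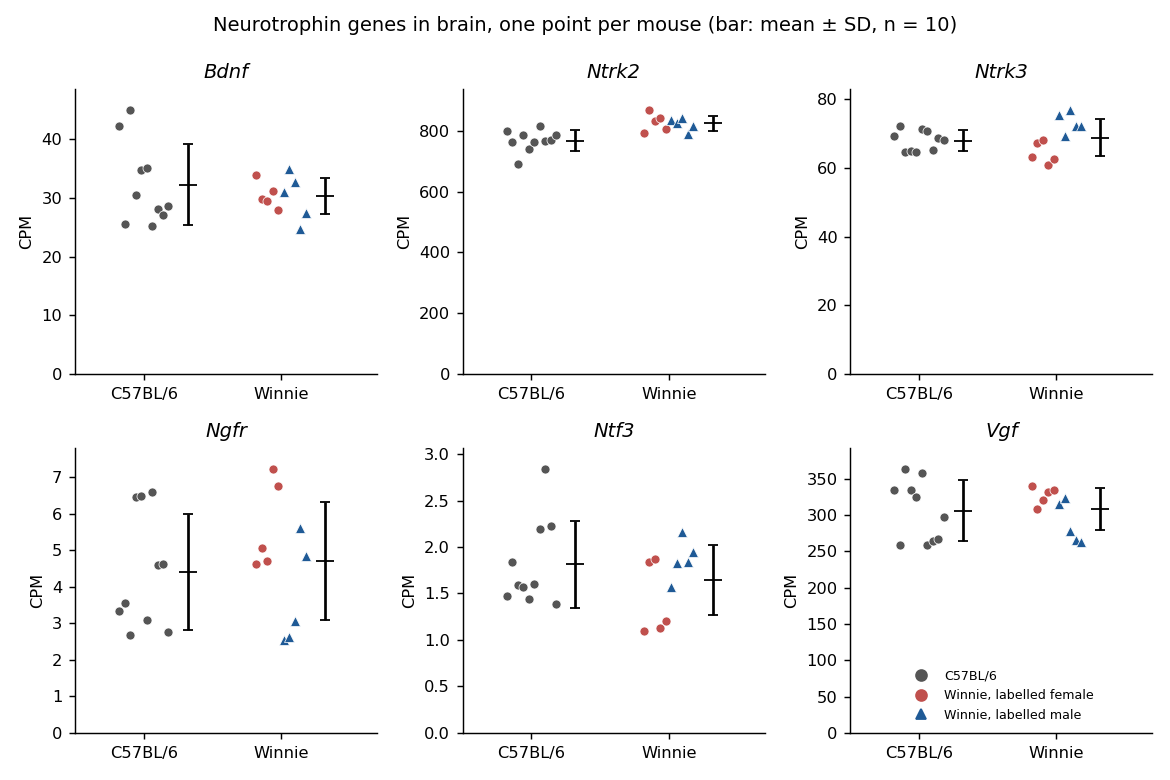
Expression of the 6 genes in CPM (linear axes from 0), 1 point per mouse, for 10 C57BL/6 and 10 *Winnie* brains; black bars are the mean ± SD, and *Winnie* points are split by labelled sex. The *Winnie* points of *Ntrk2* lie between 791 and 869 CPM, all above the C57BL/6 median of 767, and the groups overlap in each of the 6 genes.

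The wider pathway was read from gene lists. Of 129 measured pathway genes other than the 6, 4 were higher and 1 lower in *Winnie* at an FDR under 0.05, which is 3.88% against the 2.52% of all genes. The split was 1 higher and 0 lower without C57BL/6 replicate 5 or *Winnie* replicate 3, 2 higher and 0 lower without C57BL/6 replicate 3, 4 or 9, and 3 higher and 0 lower without C57BL/6 replicate 8 or *Winnie* replicate 7, 9 or 10. It was 2 higher and 1 lower without *Winnie* replicate 2 or 8 and 3 higher and 3 lower without C57BL/6 replicate 10, and it was 4 higher and 5 lower with DESeq2. Among 14 receptors and co-receptors, 0 passed, although *Kidins220*, a scaffold that binds Trk receptors, had a log2 fold change of 0.08 (FDR = 0.235) and *Tnfrsf19*, a relative of p75, one of −0.13 (FDR = 0.117). Their median log2 fold change was 0.02, beside 0.00 for all genes. Of the ligands, *Bdnf* and *Ntf3* were measured in this list and 0 passed, and among 8 granins and related granule proteins, *Vgf* included, 0 passed, with a median of −0.01 and the smallest FDR at 0.409 for *Scg2*.

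In the list of precursor processing and release 0 of 15 measured genes passed, and the median log2 fold change was 0.02. The matrix protease *Mmp9* came nearest. It lay at 0.892 to 2.09 CPM in C57BL/6 (median 1.43) and at 1.47 to 2.42 CPM in *Winnie* (median 1.80), with all 10 *Winnie* brains above the C57BL/6 median. Its log2 fold change was 0.27 (FDR = 0.159). The convertases *Pcsk6* (log2 fold change −0.10, FDR = 0.367) and *Furin* (0.07, FDR = 0.416) did not pass either.

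Downstream of Trk receptors, 4 of 51 adaptors and effectors (7.84%) passed, all higher in *Winnie*, where 2.52% of all genes did, 261 higher and 173 lower, and the median log2 fold change of the list was 0.03. *Mtor*, the kinase of growth and protein synthesis, was at 114 to 127 CPM in C57BL/6 and at 136 ± 6.93 CPM in *Winnie*, and its groups did not overlap, with 127.18 CPM as the highest C57BL/6 value and 127.23 CPM as the lowest *Winnie* value. How many of all genes separate the genotypes without overlap is not given here. The log2 fold change of *Mtor* was 0.16 (FDR = 0.0157). *Sos1*, the exchange factor that loads Ras, followed with 0.17 (FDR = 0.0226), the tyrosine kinase *Abl1* with 0.15 (FDR = 0.0344) and the adaptor *Sh2b2* with 0.27 (FDR = 0.0455). For each of the 4 genes all 10 *Winnie* brains lay above the C57BL/6 median. *Mtor* passed under each single brain left out, *Sos1* lost its call without C57BL/6 replicate 5 (FDR = 0.0552) or *Winnie* replicate 3 (FDR = 0.0510), and *Sh2b2* kept it only without C57BL/6 replicate 1 or 6 or *Winnie* replicate 4 or 10. *Sh2b2* also missed 0.05 with edgeR (FDR = 0.0512), voom (FDR = 0.0526), median-ratio scaling (FDR = 0.0555) and quantile normalization (FDR = 0.0598). *Abl1* lost its call without C57BL/6 replicate 3, 4, 5 or 9 or *Winnie* replicate 2, 3, 8 or 10, with FDR from 0.0504 to 0.0803.

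Of 25 measured adaptors and effectors of p75, 1 passed (4%), where 2.52% of all genes did. The small GTPase *Rhoa*, which p75 can activate, was lower in *Winnie*, at 166 to 184 CPM in C57BL/6 and 161 ± 5.06 CPM in *Winnie*, with a log2 fold change of −0.11 (FDR = 0.0352) and all 10 *Winnie* brains below the C57BL/6 median. This call was lost without C57BL/6 replicate 3, 4, 5, 8 or 9 or *Winnie* replicate 3, 7, 9 or 10, with FDR from 0.0506 to 0.0798. *Nfkbia*, the inhibitor of NF-kB, had a log2 fold change of 0.42 (FDR = 0.113) and *Arhgdia*, an inhibitor of small GTPases that binds p75, one of −0.09 (FDR = 0.159). The median of the list was 0.00. Among 20 activity-regulated genes, which neuronal firing induces, 0 passed with a median of −0.01. The nearest were the factor *Npas4* (log2 fold change −0.52, FDR = 0.212) and the clock gene *Per1* (0.40, FDR = 0.247).

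**Figure D2:**
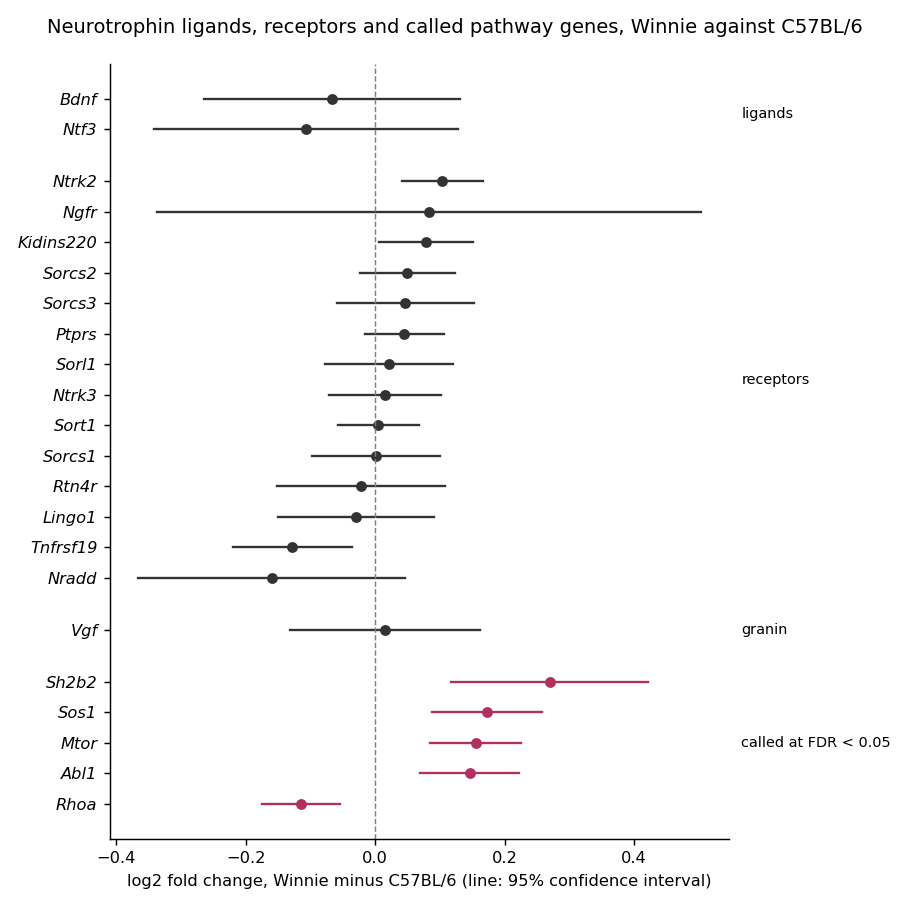
Log2 fold change of *Winnie* against C57BL/6 (x axis, points) with 95% confidence intervals (lines) for ligands, receptors, *Vgf* and the pathway genes with an FDR under 0.05, which are drawn in red. *Ntrk2* has an interval from 0.04 to 0.17 and is not called, the intervals of *Bdnf*, *Ntf3*, *Ntrk3*, *Ngfr* and *Vgf* all include 0, and among the genes in red *Sh2b2* has the largest value, 0.27.

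*Ntf3* was also described beside the gene most like it. Among 15167 genes of mean CPM of at least 1, the one whose pattern was nearest, after genotype means were removed, was *Wdfy1*, which encodes an endosomal protein. *Wdfy1* fell in 2 separate ranges, 12.2 to 16.3 CPM in 9 brains and 42.4 to 56.1 CPM in 11 brains. The higher range held 4 of the 10 C57BL/6 brains and 7 of the 10 *Winnie* brains, all 5 labelled males among them. *Ntf3* was at 1.09 to 1.60 CPM in the 9 brains of the lower range and at 1.57 to 2.84 CPM in the 11 of the higher range, a difference that the choice of *Wdfy1* for its likeness to *Ntf3* fixes.

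Within each *Wdfy1* range, *Winnie* brains had the lower median *Ntf3*. In the lower range the 6 C57BL/6 brains lay at 1.38 to 1.60 CPM and the 3 *Winnie* brains at 1.09 to 1.20 CPM, without overlap. In the higher range the 4 C57BL/6 brains had a median of 2.21 CPM and a highest value of 2.84, and the 7 *Winnie* brains a median of 1.84 CPM and a highest value of 2.16, and these groups overlapped. These values are a description, since the brains were split by a gene that was chosen for following *Ntf3*, and no test of the genotypes was drawn from the split. What sets the 2 ranges of *Wdfy1* was not tested.

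Within the 9 brains of the lower range the correlation of *Ntf3* and *Wdfy1* was r = −0.20 and rho = −0.17 (permutation p = 0.616 and 0.679). Within the 11 of the higher range r was −0.67 (permutation p = 0.0327, adjusted p = 0.0980 over 6 relations) and rho −0.37 (permutation p = 0.260). In that range C57BL/6 replicate 8 had both the lowest *Wdfy1*, 42.4 CPM, and the highest *Ntf3*, 2.84 CPM. *Wdfy1* was chosen and the brains were split for its likeness to *Ntf3* in these same brains. The p-values of this paragraph are therefore a description and no test of the relation.

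Relations between the 6 genes were examined over the 20 brains as 15 pairs, of which 2 passed for r and for rho. *Bdnf* and *Vgf* were high in the same brains, with r = 0.77 (permutation p = 5e-05, adjusted p = 0.00075) and rho = 0.77 (adjusted p = 0.00165). The value was 0.77 without the 2 brains farthest from the median of *Bdnf*. Within genotypes r was 0.87 in C57BL/6 (adjusted p = 0.0175) and 0.56 in *Winnie* (adjusted p = 0.261). After genotype means were removed the same 2 pairs passed for r and for rho. *Ntrk3* then also had a rho of 0.57 with *Ntf3* and of −0.56 with *Vgf* (each adjusted p = 0.042, permutation). Its r with these genes did not pass (adjusted p = 0.0658 and 0.0778, permutation).

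*Ntf3* and *Vgf* went in opposite directions, with r = −0.71 (permutation p = 0.00047, adjusted p = 0.00352) and rho = −0.69 (adjusted p = 0.00757), and r = −0.67 without the 2 farthest brains. Within genotypes r was −0.72 in C57BL/6 (adjusted p = 0.133, permutation) and −0.73 in *Winnie* (adjusted p = 0.0870, permutation), so neither passed alone. The rho was −0.49 in C57BL/6 and −0.82 in *Winnie*. In the ranges of *Wdfy1*, within which *Ntf3* spans less by the choice of that gene, r was 0.27 in the 9 brains of the lower range (adjusted p = 0.608) and −0.55 in the 11 of the higher range (adjusted p = 0.125). For *Bdnf* and *Vgf* the values were 0.60 (adjusted p = 0.125) and 0.77 (adjusted p = 0.0493) in the same sets.

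**Figure D3:**
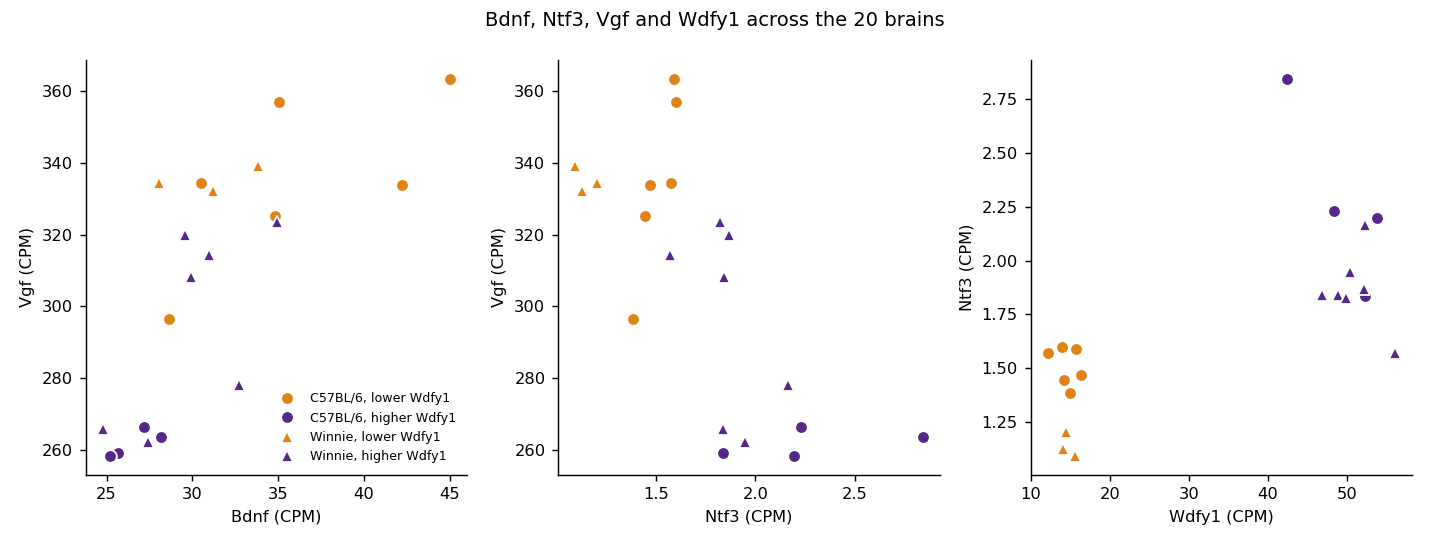
*Vgf* against *Bdnf*, *Vgf* against *Ntf3* and *Ntf3* against *Wdfy1* in the 20 brains (all axes in CPM and not starting at 0); circles are C57BL/6, triangles *Winnie*, and the colours mark the lower (12.2 to 16.3 CPM) and higher (42.4 to 56.1 CPM) range of *Wdfy1*. *Ntf3* stays at or below 1.60 CPM in the lower range, where the 3 *Winnie* brains (21 to 23 reads) lie below the 6 C57BL/6 brains (24 to 38 reads).

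The 6 genes were also set beside the summed CPM of 4 lists, those of activity-regulated genes, basal forebrain cholinergic neurons, dentate gyrus and hippocampus, and astrocytes, within each genotype. These 48 relations were chosen after the data were seen, and 5 had an adjusted p under 0.05 for r and 0 for rho. *Bdnf* followed the activity-regulated genes in C57BL/6 (r = 0.89, adjusted p = 0.0383, permutation, and rho = 0.84, adjusted p = 0.0778) and r was 0.86 without the 2 brains farthest from the median. In *Winnie* the same relation was −0.19. The permutation test of the difference gave p = 0.0029 and an adjusted p of 0.0696 over 24 differences, so the genotypes were not shown to differ. The summed list spanned 873 to 3026 CPM in C57BL/6 and the narrower 924 to 1951 CPM in *Winnie*. For *Vgf* r with the same list was 0.79 in C57BL/6 (adjusted p = 0.0787) and 0.40 in *Winnie*. In C57BL/6 these values also split by the *Wdfy1* ranges. The 6 brains of the lower range had sums of 1148 to 3026 CPM and *Bdnf* of 28.7 to 45.0 CPM. The 4 of the higher range had sums of 873 to 1083 CPM and *Bdnf* of 25.2 to 28.2 CPM. *Vgf* was at 296 to 363 CPM and at 258 to 266 CPM in the same brains. The part of this split in the relations was not tested.

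*Ngfr* was set beside markers of cholinergic neurons, of which p75 is itself one. The summed CPM of *Chat*, *Slc5a7*, *Slc18a3*, *Lhx8*, *Gbx1* and *Isl1* was 6.64 to 31.0 in *Winnie*, where it correlated with *Ngfr* at r = 0.84 (adjusted p = 0.0383, permutation) and rho = 0.73 (adjusted p = 0.164). Without the 2 brains farthest from the median r was 0.86. In C57BL/6 r was 0.84 (adjusted p = 0.0383, permutation) and rho 0.67 (adjusted p = 0.208, permutation), and the sums fell into separate clusters. The 3 brains with the highest sums, 27.5, 28.1 and 30.5 CPM, were also the 3 with the highest *Ngfr*, at 6.45, 6.50 and 6.59 CPM. The other 7 had sums of 10.5 to 17.5 CPM and *Ngfr* of 2.68 to 4.62 CPM, and among these 7 r was 0.24 (exact permutation p = 0.658) and rho 0.04 (exact permutation p = 0.963). The r over all C57BL/6 brains thus leaned on those 3 brains, though it was 0.70 without the 2 brains farthest from the median. The 7 brains were set apart by the widest gap in the same sums and span a narrow range, so their low r shows little. The last of these relations were those of *Ntrk3* in *Winnie* with the activity-regulated genes (r = −0.83, adjusted p = 0.0383, permutation) and with the cholinergic markers (r = −0.80, adjusted p = 0.0488, permutation). Without the 2 farthest brains they were −0.68 and −0.66. *Ntrk3* and the activity-regulated sum each differed between the labelled sexes without overlap. *Ngfr* (log2 difference of −0.58, male minus female) and the cholinergic sum (16.5 to 31.0 CPM in females, 6.64 to 22.1 CPM in males) also tended lower in males, with overlap. No correlation was computed over the 5 mice of a sex, and the part of sex in these relations was not tested.

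**Figure D4:**
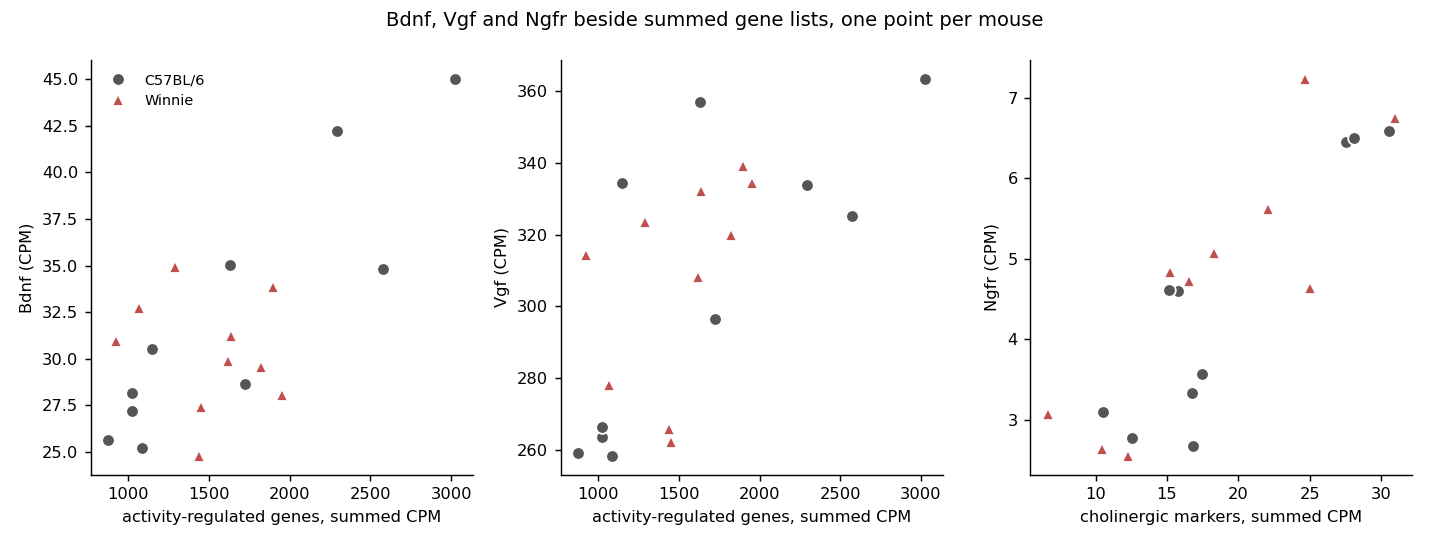
*Bdnf* and *Vgf* against the summed CPM of 20 activity-regulated genes, and *Ngfr* against the summed CPM of 6 cholinergic markers, 1 point per mouse (axes in CPM and not starting at 0). The C57BL/6 circles of *Bdnf* climb with the list (r = 0.89) and the *Winnie* triangles do not (r = −0.19), and the 3 C57BL/6 brains with the highest cholinergic sums, 27.5 to 30.5 CPM, have the highest *Ngfr* of that genotype.

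Labelled males and females were compared within *Winnie*. Of the 6 genes 0 passed an FDR of 0.05, where 20 of all genes (0.116%) did. At an unadjusted p under 0.05 there were 4 of 6, *Ntrk3* and *Ntf3* higher and *Ngfr* and *Vgf* lower in labelled males, against 1688 of all genes (9.81%). With 5 mice a group the smallest p of the exact permutation test is 0.00794.

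*Ntrk3* was the one whose groups did not overlap. How many of all genes separate the labelled sexes without overlap is not given here. For *Ntrk3* the females had 63.1, 67.3, 68.2, 60.9 and 62.8 CPM and the males 75.4, 69.4, 76.9, 72.2 and 72.2 CPM. The log2 difference (male minus female) was 0.18 with an interval of 0.07 to 0.30 (FDR = 0.197), and the exact permutation p = 0.00794 was the smallest the design allows.

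*Ngfr* was at 4.64, 5.07, 4.72, 7.24 and 6.75 CPM in females and at 2.55, 2.63, 3.07, 5.62 and 4.84 CPM in males. Of the males 3 lay below every female and the other 2 within the female range. The log2 difference was −0.58, with an interval of −1.01 to −0.15 (FDR = 0.339, exact permutation p = 0.0714).

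*Vgf* was at 339, 308, 320, 332 and 334 CPM in females and at 314, 324, 278, 266 and 262 CPM in males. All 5 males lay below the female median and 3 below the lowest female. The log2 difference was −0.18, with an interval of −0.31 to −0.06 (FDR = 0.283, exact permutation p = 0.0397).

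*Ntf3* was at 1.09, 1.84, 1.87, 1.13 and 1.20 CPM in females and at 1.57, 1.82, 2.16, 1.84 and 1.95 CPM in males. The 3 lowest females were the 3 *Winnie* brains of the lower *Wdfy1* range, and the other 2 lay within the male range. The log2 difference was 0.32, with an interval of 0.02 to 0.62 (FDR = 0.475, exact permutation p = 0.0952). *Bdnf* and *Ntrk2* had log2 differences of −0.02 (FDR = 0.967) and −0.01 (FDR = 0.973).

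Other gene groups were counted between the labelled sexes in the same 10 brains, where 9.81% of all genes had an unadjusted p under 0.05 and 0.116% passed by FDR. All 6 cholinergic markers had lower mean log2 levels in males, 4 of them at an unadjusted p under 0.05 and 0 by FDR, with sums of 16.5 to 31.0 CPM in females and 6.64 to 22.1 CPM in males. Of 20 activity-regulated genes 13 were lower in males at an unadjusted p under 0.05 and 0 by FDR, and the sums, 1619 to 1951 CPM in females and 924 to 1450 CPM in males, did not overlap. Of 7 dentate gyrus and hippocampal markers 4 were higher in males at an unadjusted p under 0.05, and 1, *C1ql2*, passed with a log2 difference of 0.40 (FDR = 0.0422). Their sums were 290 to 330 CPM in females and 325 to 340 CPM in males. Of 6 meningeal fibroblast markers 4 were lower and 1 higher in males at an unadjusted p under 0.05 and 0 by FDR (sums of 170 to 203 CPM in females and 144 to 178 CPM in males). Of 5 choroid plexus markers 3 were lower (sums of 668 to 1001 CPM in females and 499 to 894 CPM in males) and of 5 erythroid markers 4 higher in males at an unadjusted p under 0.05 (40.6 to 121 CPM in females and 117 to 150 CPM in males), and 0 of either list passed by FDR. Of 6 hypothalamic markers 1 was lower in males at an unadjusted p under 0.05 and 0 by FDR, with a median log2 difference of −0.86. Their sums were 57.6 to 79.9 CPM in females and spread from 12.3 to 92.6 CPM in males. Of 6 brainstem and midbrain markers 0 had such a p, and the sums ran from 14.8 to 72.8 CPM in females and from 12.6 to 85.5 CPM in males. The part of these groups in the values of *Ngfr*, *Ntrk3*, *Vgf* and *Ntf3* was not tested.

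**Figure D5:**
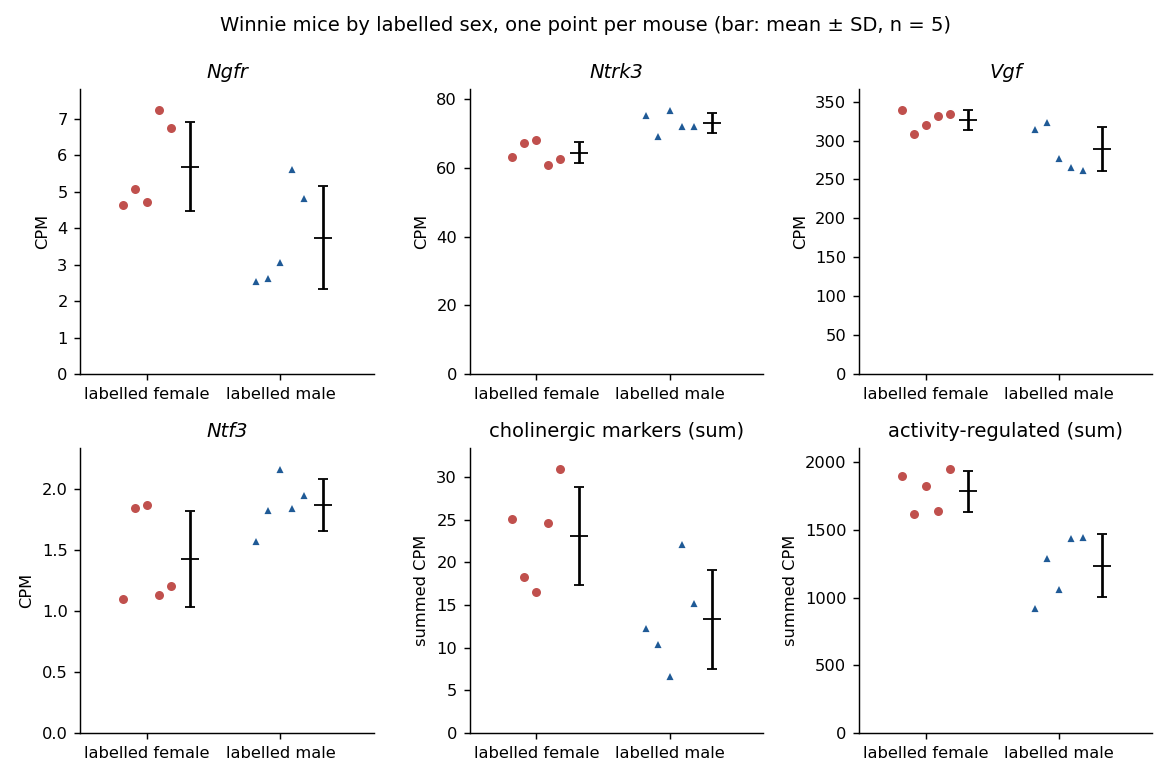
*Ngfr*, *Ntrk3*, *Vgf* and *Ntf3* in CPM, and the summed CPM of 6 cholinergic markers and 20 activity-regulated genes, in the 5 labelled female and 5 labelled male *Winnie* brains (linear axes from 0, black bars are the mean ± SD). *Ntrk3* and the activity-regulated sum do not overlap between the labelled sexes, and 3 males have *Ngfr* at or below 3.07 CPM, beneath every female.

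The genes whose pattern was most like each of the others were ranked by Pearson's r of log2(CPM + 0.5) over the 20 brains, after genotype means were removed, among 15167 genes of mean CPM of at least 1. These r are the highest of many and are a description. For *Bdnf* they were *Tmem198* (r = 0.90), *Synj2* (0.87) and *Cdkn1a* (0.87), and for *Vgf* they were *Jdp2* (0.88), *Nlk* (0.88) and again *Cdkn1a* (0.87), a cell cycle inhibitor that spanned 12.4 to 36.6 CPM. For *Ngfr* they were *Gabrg3*, a GABA-A receptor subunit (0.94), *Spock3* (0.91) and *Sh3kbp1* (0.88). *Ntrk2* had *Nhs* (0.88), *Nkain3* (0.88) and *Adgrl3* (0.86). *Ntrk3* had *Lcn2* (0.82), at 0.05 to 5.48 CPM, *Glis3* (0.81) and the hippocampal marker *Fibcd1* (0.80). After *Wdfy1*, *Ntf3* had *3010026O09Rik* (0.86) and *Rab4a* (0.84).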

How the data were processed

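Brain RNA of 20 mice was sequenced by the authors as paired-end libraries, aligned to GRCm38 and counted per gene (featureCounts, per the labels), and the authors deposited the result as CPM scaled to the total over the 17211 listed genes. The values were whole multiples of 1 read in 100% of cases, within 0.0006 CPM, so reads could be recovered for count tests. In the table each gene had at least 0.5 CPM in 4 or more samples. Intervals and floors based on reads cover counting error only.

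Genotypes were compared with limma 3.58.1 (R 4.3.3) on log2(CPM + 0.5), with trend and robust variance, over all 20 samples. FDR is the Benjamini-Hochberg adjusted p over all genes, and a gene was called at an FDR under 0.05. Fold changes on this scale understate those of low genes such as *Ntf3*. Labelled sexes were compared in a separate fit of the 10 *Winnie* samples. Single genes and correlations used two-sided permutation tests (100000 resamples, exact for 5 against 5, Python 3.11.15 with pandas 2.3.3, numpy 2.4.6 and scipy 1.17.1). The model code was tested on simulated data. The genes, the pathway and marker lists and the tests were chosen with earlier results of these data known. Some genes of these lists are not reported here and were left out of their counts and sums. Named genes were the 6, every called pathway gene, otherwise up to 3 per list with the smallest unadjusted p, and the 3 genes most like each of the 6. Marker lists gave 0 calls between genotypes for neurons, cortical excitatory, inhibitory and cholinergic neurons, hippocampus, cerebellum, brainstem, hypothalamus, astrocytes, oligodendrocytes, microglia, meninges, choroid plexus and erythroid cells. In the endothelial list 1 of 6 passed (*Cldn5*, log2 fold change −0.47, FDR = 0.00331). The Schwann cell list had only 3 of 6 genes measured and was not read, though *Cdh19* passed (0.41, FDR = 0.0272).

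Positions and exon lengths are from GENCODE M21, in which 17128 of 17211 identifiers were found, each on the chromosome that the table gives. The fit was repeated with DESeq2 1.42.0, edgeR 4.0.16 and voom on the recovered reads, after quantile normalization or median-ratio scaling, with 0.1 or 1 in place of the pseudocount, on the 15168 genes with a mean CPM of at least 1, with *Ddx3y* or labelled sex as a covariate, with a replicate block, and without each sample in turn. Those with *Wdfy1*, and the relations with summed lists, were added after seeing the data. The study's methods give fewer brains per genotype than the 20 labelled samples, and all 20 were used.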

Additional observations from a re-analysis of the deposited data

How the results depend on the processing

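Between the genotypes, *Ntrk2* kept its direction under every alternative run and had FDR between 0.0138 and 0.121. It passed 0.05 at a log2 fold change of 0.1073 with *Ddx3y* as a covariate, 0.1001 with DESeq2 and 0.1040 with voom, and with each brain left out in turn it ran from 0.0869 to 0.1139. Leave-one-out ranges were −0.1022 to −0.0105 for *Bdnf*, −0.0033 to 0.0337 for *Ntrk3*, 0.0126 to 0.1619 for *Ngfr*, −0.1441 to −0.0458 for *Ntf3* and −0.0099 to 0.0448 for *Vgf*. With *Wdfy1* as a covariate the sign turned for *Bdnf* (0.0053, and 0.0040 with edgeR) and *Ntrk3* (−0.0247, and −0.0153 with edgeR), all far from the threshold. DESeq2 gave no adjusted p for *Ntf3*. Within *Winnie*, leave-one-out ranges of the log2 difference were −0.0784 to 0.0433 for *Bdnf*, −0.0267 to 0.0068 for *Ntrk2*, 0.1633 to 0.2034 for *Ntrk3*, −0.7303 to −0.4790 for *Ngfr*, 0.2544 to 0.3970 for *Ntf3* and −0.2248 to −0.1490 for *Vgf*, and none was called. The count of 434 genes between genotypes became 977 with DESeq2 and ran from 169 (without C57BL/6 replicate 5) to 694 (without C57BL/6 replicate 10) with 1 brain left out. It also moved by more than 1.5 times without C57BL/6 replicate 3, 8 or 9 (238, 250 and 270) or *Winnie* replicate 2, 3, 7 or 8 (264, 241, 256 and 216). The count of 20 within *Winnie* ran from 12 (without replicate 2 or 4) to 67 (without replicate 1), with 43 without replicate 10. The relation of *Ntf3* and *Vgf* was 0.2657 and −0.5465, and that of *Bdnf* and *Vgf* 0.6032, in the *Wdfy1* ranges. With *Wdfy1* as a covariate *Sh2b2* (FDR = 0.0704), *Abl1* (0.0545) and *Rhoa* (0.0545) missed 0.05. *Wdfy1* was chosen for its likeness to *Ntf3*, so that fit is no test of *Ntf3*. The causes were not tested.

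The labels number the mice of both genotypes from 1 to 10. Same-numbered mice had correlations of their deviations from −0.342 to 0.172, 2 of 10 above 0.1, and 0 of 10 correlated best with their own number. These values gave no sign that the numbers pair the mice, but low correlations cannot exclude pairing. With a replicate block the count of called genes was 227 and the FDR of *Ntrk2* 0.121, and of the called pathway genes *Mtor* remained below 0.05. The log2 fold changes of the 6 genes are the same by construction (for example 0.1039 for *Ntrk2*).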
